A study of Mus musculus with 8 samples.

Results

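Heat shock proteins and their DnaJ partners were examined in GFP-positive cells sorted from mouse kidneys 3 days after ischemia-reperfusion and from control kidneys. Members were all genes whose symbol in the array annotation begins with Hspa, Hspb, Hspd, Hspe or Hsph and a digit, with Hsp90, or with Dnaja, Dnajb or Dnajc and a digit, counted from probe sets that carry a single symbol. This gave 70 of the 18193 genes measured. The rule uses names and no measured value.

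All mice were labelled male, 6 months old, C57BL/6 and carriers of FSP1-eGFP, in which the promoter of FSP1 (S100a4), a gene often used to mark fibroblasts, drives GFP. The ischemic group held 5 arrays from left kidneys clamped at artery and vein for 45 minutes without blood flow before reperfusion. Buprenorphine was given for pain after the operation. The control group held 3 arrays from kidneys that the labels call normal, sham and non-ischemic, with no description of a sham operation. Cells from both groups were freed by mincing and collagenase and sorted by FACS, so all 8 arrays share that handling. Titles number the arrays within a group and do not say that each comes from a separate kidney. Values are log2(intensity + 16) after quantile normalization, on which an intensity of 1 becomes 4.09 and the median gene lies at 5.93, and differences are ischemic minus normal.

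Heat shock proteins are chaperones that hold, fold and refold other proteins. Hsp70 proteins bind unfolded stretches in a cycle driven by ATP, DnaJ proteins (also called Hsp40) deliver clients to Hsp70 and start its ATP hydrolysis, Hsp90 acts on later folding steps, and small heat shock proteins hold unfolding clients without using ATP. One set of cytosolic members is switched on by the transcription factor HSF1 when proteins unfold, after heat, lack of oxygen or loss of ATP, while close relatives are made all the time. Separate members serve the endoplasmic reticulum, where the unfolded protein response controls them, and the mitochondrial matrix. In the kidney, Hsp70 and Hsp27 (Hspb1) are known for their induction in tubules after ischemia.

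Some arrays stood apart from the others or from their labels. Xist, made from the silenced X in female cells, lay between 9.39 and 11.21 in ischemic 1, ischemic 2 and normal 1, although all mice are labelled male, and between 4.49 and 4.96 in the other 5 arrays. The Y-linked gene Eif2s3y was lowest in ischemic 1 and normal 1, at 5.84 in both. In ischemic 2 it was 7.78, within the 7.68 to 8.87 of the 5 arrays with low Xist. The 3 arrays with high Xist were thus not alike in Eif2s3y. Ischemic 1 was also least like the others, with a median between-array correlation of 0.753 against 0.850 to 0.913. T cell and B cell markers moved with this split: the B cell mean was 8.97, 7.33 and 6.65 in the 3 arrays with high Xist and between 4.91 and 5.46 in the others, and the T cell mean was 8.18, 6.68 and 7.29 against 4.80 to 6.24. Of 10 markers of the labelled fibroblasts 5 lay at or above the median gene (Thy1, Col1a1, Col1a2, Pdgfrb and Postn) and 5 below it (Pdgfra, Dcn, Col3a1, Fbln1 and Lum, the last between 4.18 and 4.79 in all arrays), against 50% of all genes. All 10 macrophage markers lay above it, and their mean was 9.77 to 10.63 in ischemic and 9.22 to 9.54 in normal arrays. The mean of 10 proximal tubule markers lay between 5.94 and 8.01 in ischemic and between 9.23 and 10.96 in normal arrays, and that of 8 distal nephron markers between 5.76 and 6.94 and between 8.53 and 8.79. In none of these 3 marker means did the groups overlap, and their part in the values of the members was not tested. In sorted cell pools, fewer cells of a type and less RNA per cell cannot be told apart.

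No member passed the test. Limma called 0 of the 70 members and 0 of all 18193 genes (0%) at an adjusted p of 0.05. At an unadjusted limma p under 0.05 there were 3 members (4.29%), against 7.13% of all genes. Of these, 0 lay on the higher side, against 2.11% of all genes, and 3 on the lower side, against 5.02% of all genes. They were Dnajc12, Hspa9 and Dnaja3. Without ischemic replicate 1 the count on the lower side was 1, against 5.05% of all genes. Without ischemic replicate 5 it was 5, against 5.7% of all genes. Over all genes the split was 384 higher and 913 lower, and it moved to 234 and 1011 when each array was centred on its median and to 143 and 1436 when centred on ribosomal protein genes, with no member called at the adjusted threshold under either. The groups did not overlap in 1 member that was higher in ischemic arrays, Dnajc5g (1.43%, against 1.89% of all genes), and in 2 that were lower, Hspa9 and Dnajc12 (2.86%, against 3.44% of all genes). These shares of the members were close to or below the background. Of the 70 members 57 differed between the groups by less than the pooled SD of their replicates (81.4%, against 76.2% of all genes). The median difference was −0.11, with 29 members positive (41.4%, against 54.8% of all genes), beside a median of 0.04 over all genes. The plot of all 70 differences gives their intervals.

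**Figure D1:**
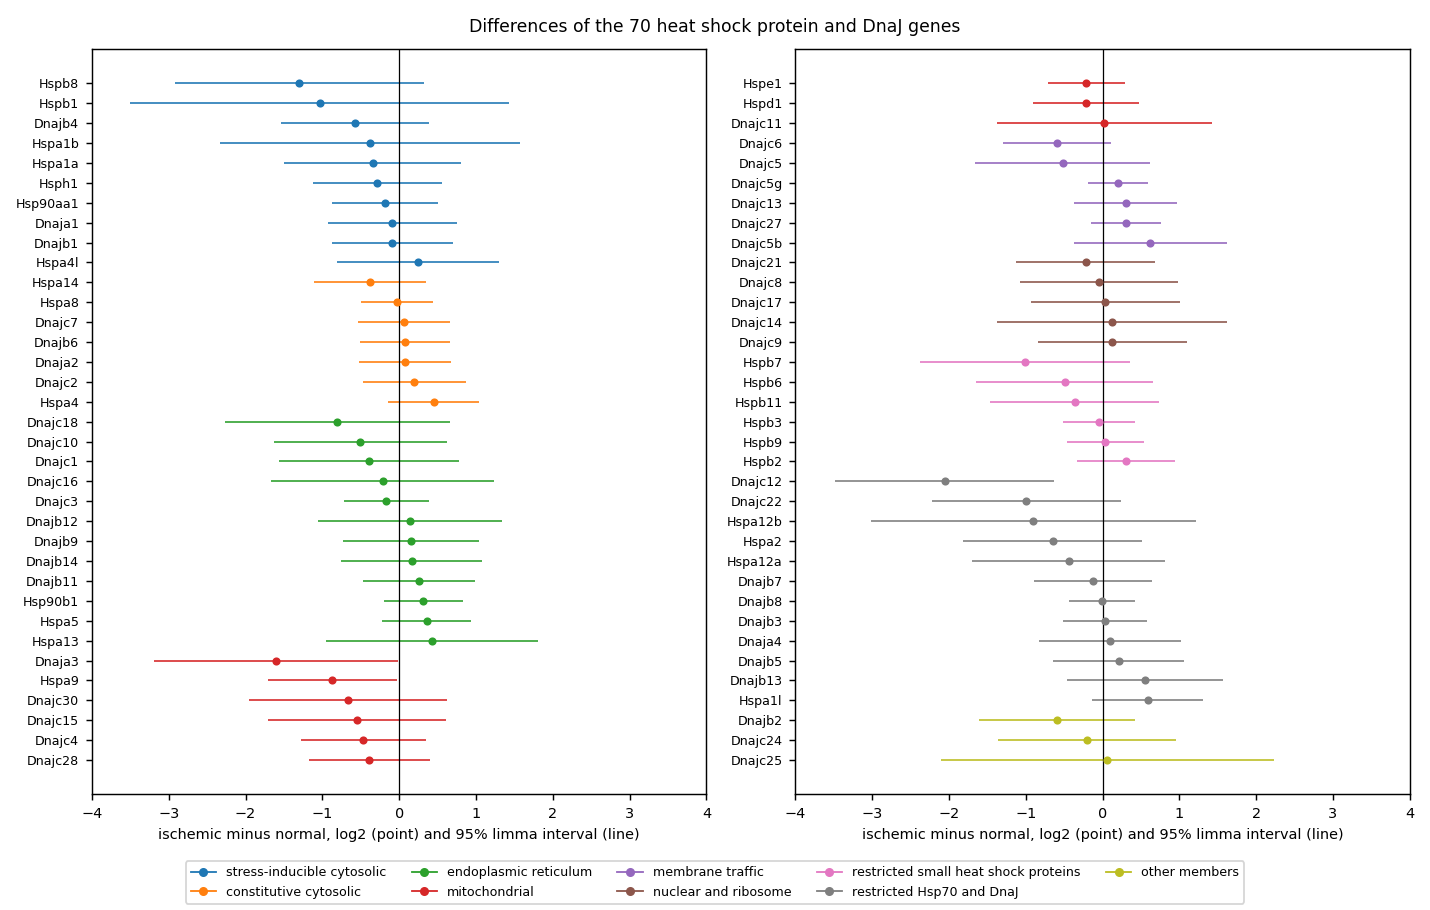
Difference between 5 ischemic and 3 normal arrays (x axis, log2 units) for each of the 70 genes (y axis), coloured by the list it belongs to, with the 95% limma interval as a line. The intervals of Dnajc12, Hspa9 and Dnaja3 lie below 0, and the largest positive difference is 0.62.

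Among stress-inducible cytosolic chaperones 9 of 10 lay at or above the median gene, and no rise after ischemia was detected. Of the 10 listed members, 9 had a negative difference and 1 a positive one, with a median of −0.32. None passed limma's test, and in 9 of 10 the difference was smaller than the pooled SD. The median was negative under every setting tried, from −0.56 with arrays centred on ribosomal protein genes to −0.056 without ischemic replicate 3, and without normal replicate 3 it was −0.069. The plot of cytosolic chaperones by array shows each value.

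**Figure D2:**
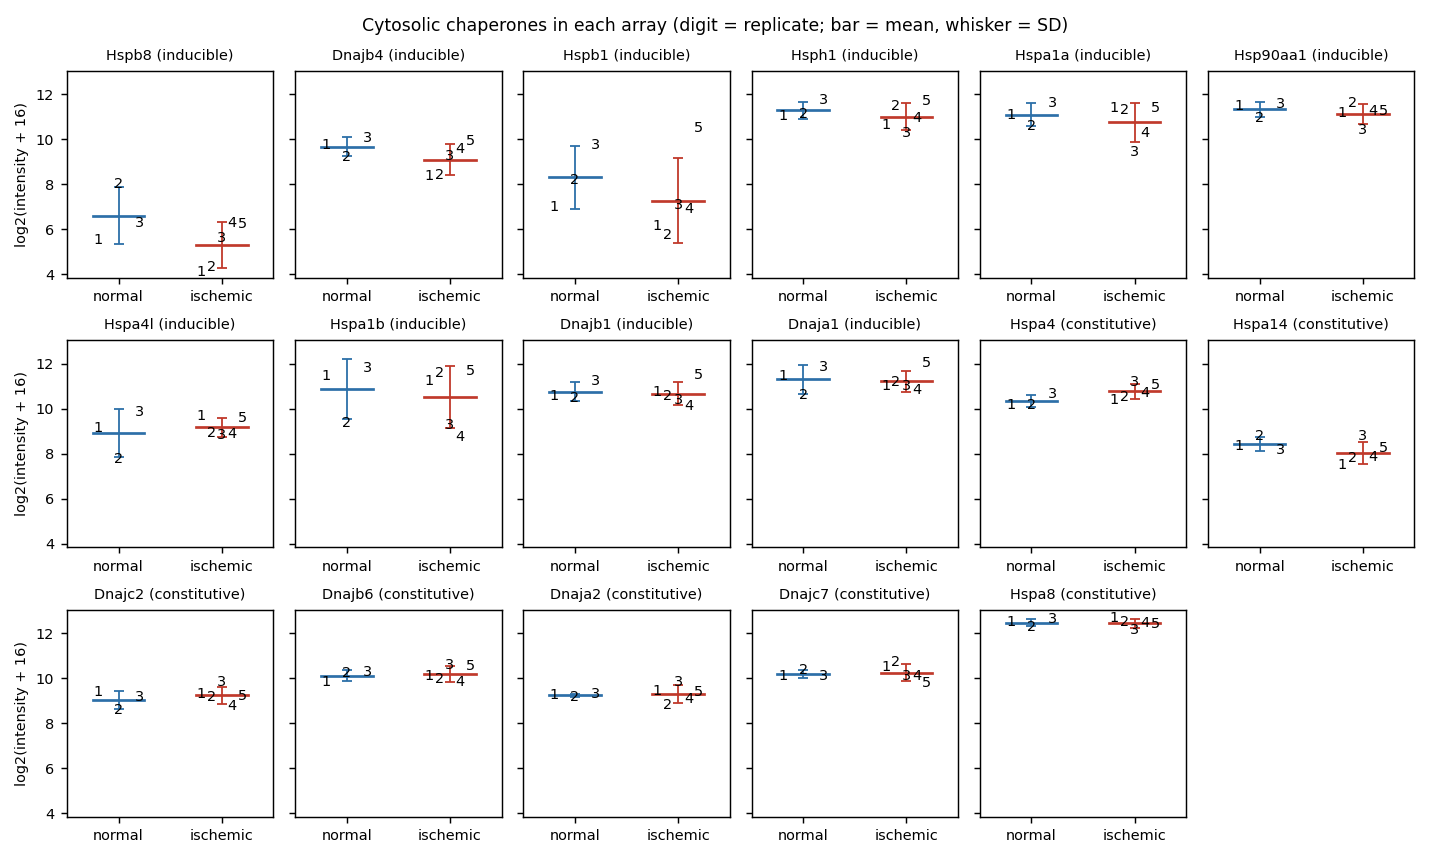
Level of each cytosolic member (y axis, log2(intensity + 16)) in 3 normal and 5 ischemic arrays, with the replicate number as the point, the group mean as a bar and the SD as a whisker. Ischemic 5 and normal 3 are the highest of their groups in most inducible members, and the constitutive members differ less between arrays.

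Hspa1a and Hspa1b encode the inducible Hsp70 and are near-identical neighbouring genes, so probe sets designed for one may also detect RNA of the other. Their upstream sequences, shown because the pair can hardly be told apart by sequence, match at 247 of 250 bases. They are given 5′ to 3′ for the 250 bases before the start, from RefSeq on GRCm38.p6, at chr17:34972157-34972406 for Hspa1a and chr17:34959239-34959488 for Hspa1b, both on the minus strand. Capitals mark the pair of inverted heat shock units GAANNTTC, 104 bases before the start in both.
Hspa1a: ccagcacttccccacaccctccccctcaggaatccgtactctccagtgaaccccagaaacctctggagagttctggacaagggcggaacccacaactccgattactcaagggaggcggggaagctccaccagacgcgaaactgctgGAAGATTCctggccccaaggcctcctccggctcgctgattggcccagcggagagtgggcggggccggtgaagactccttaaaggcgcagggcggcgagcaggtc
Hspa1b: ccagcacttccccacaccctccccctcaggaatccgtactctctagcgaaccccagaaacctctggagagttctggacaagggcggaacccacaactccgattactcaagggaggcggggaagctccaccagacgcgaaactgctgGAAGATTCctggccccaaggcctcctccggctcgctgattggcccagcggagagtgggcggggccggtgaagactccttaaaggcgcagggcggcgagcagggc

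Hspa1a measured 11.37, 11.29, 9.43, 10.26 and 11.40 in ischemic arrays 1 to 5 and 11.07, 10.59 and 11.62 in normal arrays 1 to 3. Hspa1b measured 11.22, 11.59, 9.28, 8.75 and 11.70 in the ischemic and 11.47, 9.36 and 11.83 in the normal arrays. Both genes were low in ischemic 3, ischemic 4 and normal 2 and high in the other 5 arrays, so the groups overlapped. The difference was −0.35 ± 0.51 (SE, n = 5 and 3) for Hspa1a, with a 95% interval from −1.51 to 0.81 (limma adjusted p = 0.962). For Hspa1b it was −0.38 ± 0.86, with an interval from −2.34 to 1.58 (limma adjusted p = 0.969). Without normal replicate 2 the Hspa1b difference was −1.14, and it turned to 0.091 without normal replicate 3 and to 0.06 without ischemic replicate 4. The other 2 probe sets of Hspa1b differed by −0.30 and −0.56 and were lowest in ischemic 4 too.

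Hspb1, also known as Hsp27, is a small heat shock protein that binds unfolding clients and actin. Its 250 upstream bases, shown because Hspb1 had the widest spread of the inducible members, lie at chr5:135887669-135887918 on the plus strand (RefSeq, GRCm38.p6). Capitals mark the matches to GAANNTTC, 117 and 97 bases before the start.
Hspb1: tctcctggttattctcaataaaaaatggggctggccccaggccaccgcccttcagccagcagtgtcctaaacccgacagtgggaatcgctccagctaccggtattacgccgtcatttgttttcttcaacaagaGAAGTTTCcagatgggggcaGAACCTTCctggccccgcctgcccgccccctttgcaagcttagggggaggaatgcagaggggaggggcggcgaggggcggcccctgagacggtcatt

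Hspb1 measured 6.14, 5.76, 7.07, 6.89 and 10.52 in ischemic arrays 1 to 5 and 6.98, 8.19 and 9.76 in normal arrays 1 to 3. Ischemic 5 was far above the other ischemic arrays, while the normal arrays were spread out with normal 3 the highest. The highest value of all 8 arrays belonged to an ischemic kidney. The difference of −1.03 ± 1.08 (SE) was smaller than the pooled SD of 1.74 (limma adjusted p = 0.953), and it was −1.85 without ischemic replicate 5 and −0.31 without normal replicate 3. A further probe set of Hspb1 had the same arrays on top, with 9.96 in ischemic 5 and 9.32 in normal 3.

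Hspa12b, an Hsp70 relative of endothelial cells, had its 3 highest values in the same arrays as Hspb1. Hspa12b measured 7.93, 6.69, 8.21, 8.53 and 10.62 in the ischemic and 7.48, 10.41 and 10.00 in the normal arrays. These were ischemic 5, normal 2 and normal 3, while the order within the 3 and among the other arrays differed. The same held for 7 of 8 endothelial markers, for Dnajc18 as the only other member, and for 584 of all 18193 genes. Cryab, a small heat shock protein outside the rule that was picked after its values were seen, had the same 3 arrays on top, at 11.27, 10.72 and 10.69. The mean of the endothelial markers lay between 6.54 and 9.84 in ischemic and between 7.81 and 9.37 in normal arrays, and its part in these values was not tested. The Hspa12b difference of −0.90 ± 0.92 (SE) had a limma adjusted p of 0.951.

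**Figure D3:**
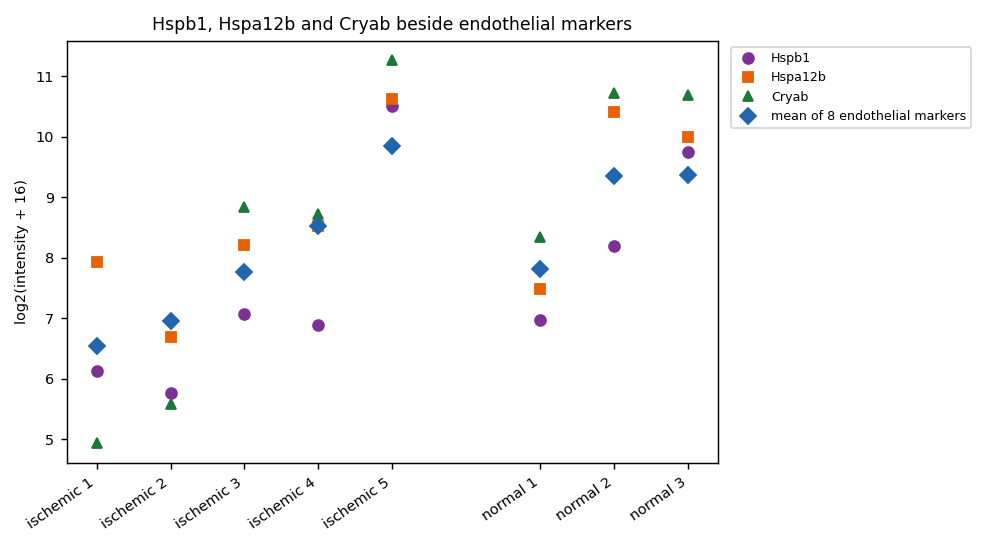
Levels (y axis, log2(intensity + 16)) of Hspb1, Hspa12b and Cryab and the mean of 8 endothelial markers in each of the 8 arrays (x axis). Ischemic 5, normal 2 and normal 3 are the highest arrays in all 4 series of points, with ischemic 5 at 10.52 for Hspb1.

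Hsph1, a nucleotide exchange factor of Hsp70, measured 10.61, 11.48, 10.28, 10.94 and 11.70 in the ischemic and 11.01, 11.12 and 11.73 in the normal arrays (difference −0.28 ± 0.37, SE). Hsp90aa1, the inducible cytosolic Hsp90, measured 11.18, 11.62, 10.41, 11.24 and 11.24 in the ischemic and 11.49, 10.94 and 11.55 in the normal arrays (difference −0.19 ± 0.30, SE). Dnajb1, the main inducible Hsp40, measured 10.76, 10.55, 10.40, 10.14 and 11.51 in the ischemic and 10.55, 10.48 and 11.25 in the normal arrays (difference −0.09 ± 0.35, SE). In none of these 3 did the groups separate, and limma's adjusted p lay between 0.954 and 0.977.

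Dnaja1, a farnesylated Hsp40 of the cytosol, measured 11.02, 11.20, 11.01, 10.84 and 12.02 in the ischemic and 11.45, 10.62 and 11.87 in the normal arrays. Its difference was −0.09 ± 0.37 (SE; limma adjusted p = 0.978). Of the other inducible members, Hspb8, which works with Bag3 in selective autophagy, differed by −1.30 ± 0.71 and Dnajb4 by −0.58 ± 0.42. Hspb8 had a mean of 5.79, below the median gene, and lay at the floor in ischemic 1, at 4.09. The other probe sets of Hspb8 differed by −0.17 and 0.01. Hspa4l, an Hsp110 relative, was the only inducible member with a positive difference, 0.25 ± 0.46, and its 5 probe sets did not share a sign. Ischemic 5 was the highest ischemic array in 7 of the 10 inducible members, and normal 3 the highest normal array in 9 of 10. The mean over the list was accordingly 10.58 in ischemic 5 and 10.58 in normal 3, while the other 4 ischemic arrays lay between 9.16 and 9.51 and the other normal arrays at 9.85 and 9.63. The SDs of 0.56 and 0.50 within groups exceeded the difference between the group means of 9.61 and 10.02.

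Constitutive cytosolic chaperones were the steadiest list. Of 8 listed genes 7 were measured, and Hsp90ab1 was not analysed here. Their median pooled SD was 0.32, against 0.66 in the inducible list and 0.55 over all genes. The median difference was 0.08, with 5 of 7 positive and 0 past limma's test, and it turned to −0.14 with arrays centred on their medians and to −0.24 with arrays centred on ribosomal protein genes. Under ribosomal centring the median over all 18193 genes was −0.08, against 0.04 in the main setting, and the constitutive median lay below it. The difference between the inducible and the constitutive list was not tested.

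Hspa8, the cognate Hsp70 that also uncoats clathrin vesicles, measured 12.68, 12.49, 12.14, 12.45 and 12.43 in the ischemic and 12.49, 12.30 and 12.62 in the normal arrays. All 8 arrays lay between 12.14 and 12.68, and the groups overlapped. The difference was −0.03 ± 0.20 (SE), with a 95% interval from −0.50 to 0.44 (limma adjusted p = 0.989), the narrowest interval among the cytosolic members. Hspa4, an exchange factor of Hsp70, measured 10.41, 10.54, 11.21, 10.69 and 11.04 in the ischemic and 10.17, 10.18 and 10.64 in the normal arrays. Its difference of 0.45 ± 0.26 (SE) was the largest positive one of the list (limma adjusted p = 0.855), and a second bright probe set of the gene differed by −0.31. Hspa14, an Hsp70 of the ribosome-associated complex, differed by −0.38 ± 0.32, while its other probe sets differed by 1.46 and 1.04, in the opposite direction. Dnajc2, its J-protein partner at the ribosome, differed by 0.20 ± 0.30. Dnaja2, Dnajb6 and Dnajc7, further cytosolic J proteins, differed by 0.08, 0.08 and 0.06.

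Around the heat shock response, 15 of 17 listed genes of HSF1 and the cochaperones were measured, and Hsf1 itself was not among them. Limma called 0 of 15, with 0 at an unadjusted p under 0.05 in either direction, 5 positive differences and a median of −0.11. The genes of lowest p were Hspbp1, an exchange factor of Hsp70, at 0.60 ± 0.27 (SE), and Cdc37, which brings kinases to Hsp90, at 0.60 ± 0.40 (limma adjusted p = 0.713 and 0.891). Ischemic 5 was again the highest ischemic array in 9 of these 15 genes and normal 3 the highest normal array in 7.

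Immediate early genes, which respond within minutes to stress and to tissue digestion, were mostly bright in both groups. All 14 listed genes lay above the median gene, 9 had a positive difference, the median was 0.09, and limma called 0 of 14. Junb and Ier2 passed the median gene only narrowly, with means of 6.01 and 6.21 over the 8 arrays. Both lay below it in ischemic 1 and normal 1. Socs3, a feedback inhibitor of cytokine signalling, differed by 0.85 ± 0.36 (SE) and Ier3 by 0.43 ± 0.27 (limma adjusted p = 0.677 and 0.880). The mean of the list lay between 9.79 and 10.36 in ischemic and between 9.61 and 10.29 in normal arrays. What digestion added to either list was not tested, since every array comes from digested tissue.

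In the endoplasmic reticulum, Hspa5 and Hsp90b1 had positive differences that did not pass the test. Of 12 members 7 were positive and 5 negative, with a median of 0.15 and 0 past limma's test. The median turned to −0.09 with arrays centred on ribosomal protein genes and to −0.09 without ischemic replicate 4. Hspa5, the Hsp70 of this compartment (BiP), and Hsp90b1, its Hsp90 (GRP94), are textbook targets of the unfolded protein response. Their 250 upstream bases are shown because both hold the ER stress element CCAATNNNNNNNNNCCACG in capitals, which 0.119% of all 32851 RefSeq promoter windows hold on either strand. They lie at chr2:34771840-34772089 on the plus strand for Hspa5 and at chr10:86705445-86705694 on the minus strand for Hsp90b1, where the second match is on the opposite strand (RefSeq, GRCm38.p6).
Hspa5: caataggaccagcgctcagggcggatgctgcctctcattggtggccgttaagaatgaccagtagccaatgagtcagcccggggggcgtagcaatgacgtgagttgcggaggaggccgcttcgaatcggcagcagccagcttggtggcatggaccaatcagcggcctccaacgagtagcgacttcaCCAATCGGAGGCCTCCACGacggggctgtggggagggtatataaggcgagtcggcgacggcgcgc
Hsp90b1: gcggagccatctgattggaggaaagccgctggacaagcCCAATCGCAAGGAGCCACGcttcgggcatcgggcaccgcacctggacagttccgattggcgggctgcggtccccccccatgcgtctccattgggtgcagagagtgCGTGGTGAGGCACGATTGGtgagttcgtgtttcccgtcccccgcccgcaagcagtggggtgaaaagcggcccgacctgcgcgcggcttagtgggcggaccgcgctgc

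Hspa5 measured 11.07, 10.96, 11.37, 10.93 and 11.42 in the ischemic and 10.59, 10.50 and 11.28 in the normal arrays. Hsp90b1 measured 11.17, 11.45, 11.49, 11.14 and 11.41 in the ischemic and 10.80, 10.85 and 11.41 in the normal arrays. In both genes normal 1 and normal 2 lay below every ischemic array and normal 3 lay among them. The differences were 0.36 ± 0.26 (SE) for Hspa5 and 0.31 ± 0.22 for Hsp90b1, both with a limma adjusted p of 0.917. Without normal replicate 3 they were 0.60 and 0.51, and ribosomal centring gave 0.08 and 0.06.

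Dnajb9 (ERdj4), a J protein of the same response, measured 8.85, 8.08, 9.27, 9.57 and 9.44 in the ischemic and 8.63, 8.58 and 9.44 in the normal arrays. It differed by 0.16 ± 0.39 (SE; limma adjusted p = 0.970), and its groups overlapped. Dnajb11 (ERdj3), a cofactor of BiP, differed by 0.26 ± 0.32 and Dnajc3 (p58IPK), which restrains the kinase PERK and also holds an ER stress element, by −0.17 ± 0.24. Hspa13, a small Hsp70 of microsomes, was at 9.06 in ischemic 1 and between 6.27 and 7.32 in the other 7 arrays. Its other probe sets did not share this. Ischemic 1 was at 5.89 in the brightest of them and was the lowest array in the rest, at 5.04 and 4.15. Dnajc10 (ERdj5), a reductase, and Dnajc1 differed by −0.51 ± 0.49 and −0.39 ± 0.51. Other probe sets above the median gene went the opposite way, at 0.29 and 0.60 for Dnajc10 and 0.61 for Dnajc1.

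Outside the members, 17 listed genes of the unfolded protein response were measured. Limma called 0 of 17, while 2 were higher at an unadjusted p under 0.05 and 0 lower, with 13 positive and a median of 0.16. Over all genes 2.11% were higher at that p and 54.8% were positive. Sdf2l1, a partner of BiP and Dnajb11, measured 9.24, 9.15, 9.19, 9.29 and 8.93 in the ischemic and 8.44, 8.51 and 8.58 in the normal arrays. Every ischemic array lay above every normal array, with a difference of 0.65 ± 0.19 (SE; limma adjusted p = 0.341). Pdia4, a disulfide isomerase, differed by 1.04 ± 0.33 (limma adjusted p = 0.404), with normal 3 at 8.51 beside 7.49 and 7.25 in the other normal arrays.

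Mitochondrial chaperones had the most negative list. Of 10 listed genes 9 were measured, and 8 of 9 had a negative difference, with a median of −0.47 and 0 past limma's adjusted test. Both Hspa9 and Dnaja3 had an unadjusted p under 0.05. Normal 1 was the highest normal array in 8 of 9 members, and without normal replicate 1 the median was −0.056. Among the 5 arrays with low Xist the median was −0.14, and among the 3 with high Xist, of which 1 is normal, it was −1.56. Normal 1 was also the highest normal array in 8 of 10 proximal tubule markers, with a marker mean of 10.96, and the part of tubule RNA in the list was not tested.

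Hspa9 (mortalin), the mitochondrial Hsp70 that pulls proteins through the inner membrane, measured 8.51, 9.70, 9.72, 9.08 and 9.69 in the ischemic and 10.81, 9.84 and 9.97 in the normal arrays. All ischemic arrays lay below all normal arrays, though ischemic 3 and normal 2 were only narrowly apart. The difference was −0.87 ± 0.37 (SE; limma adjusted p = 0.681), and a further bright probe set differed by −0.94. In that probe set the groups overlapped, with ischemic 3 at 9.57 above normal 3 at 9.37. Leaving out normal replicate 1 gave −0.57, the low-Xist arrays alone gave −0.41 and the high-Xist arrays −1.71. Dnaja3 (Tid1), the J protein that works with Hspa9, measured 5.35, 6.19, 7.73, 5.13 and 7.56 in the ischemic and 8.70, 8.22 and 7.06 in the normal arrays. Its groups overlapped, with a difference of −1.60 ± 0.70 (SE; limma adjusted p = 0.698), and its other probe sets differed by −0.29 and −1.05.

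Hspd1 (Hsp60) and Hspe1 (Hsp10) form the folding chamber of the matrix and are transcribed in opposite directions from one promoter. The 215 bases between their starts, shown because both genes share them, lie at chr1:55087933-55088147 and are given on the strand of Hspe1 (RefSeq, GRCm38.p6). A further Hspd1 window, at chr1:55088194-55088493, overlaps the Hspe1 window by only 4 bases, and its start was not used here. Capitals mark 2 overlapping matches to the 3-unit heat shock element (TTCNNGAANNTTC or, on the other strand, GAANNTTCNNGAA), the first of them 89 bases before the Hspe1 start.
Hspe1: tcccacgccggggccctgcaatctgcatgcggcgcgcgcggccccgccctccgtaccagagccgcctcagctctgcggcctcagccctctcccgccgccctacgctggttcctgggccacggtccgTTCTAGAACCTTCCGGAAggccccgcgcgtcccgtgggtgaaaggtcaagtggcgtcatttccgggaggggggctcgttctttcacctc

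Hspe1 measured 10.68, 10.39, 10.77, 10.62 and 10.80 in the ischemic and 11.20, 10.59 and 10.79 in the normal arrays. Hspd1 measured 10.38, 10.14, 10.87, 9.90 and 10.86 in the ischemic and 10.95, 10.27 and 10.70 in the normal arrays. Normal 1 was the highest array in both, and the groups overlapped. Both differed by −0.21 (SE 0.22 for Hspe1 and 0.30 for Hspd1; limma adjusted p = 0.952 and 0.959), and both turned slightly positive among the arrays with low Xist, at 0.04 and 0.06. The other mitochondrial members were 4 J proteins with differences between −0.67 for Dnajc30 and −0.39 for Dnajc28, and Dnajc11 at 0.02. A second probe set of Dnajc28, of similar brightness, differed by 0.50, in the opposite direction.

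Of 10 listed genes of mitochondrial protein quality outside the members, 8 were negative, with a median of −0.51. Limma called 0 of 10, while 2 were lower and 0 higher at an unadjusted p under 0.05, against 5.02% and 2.11% of all genes. These were Clpx and Clpp, the 2 parts of the matrix protease ClpXP, with a difference of −1.50 ± 0.51 (SE) for Clpx and means of 7.96 in ischemic and 8.96 in normal arrays for Clpp (limma adjusted p = 0.493 and 0.518). Normal 1 was the highest normal array in 6 of the 10.

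**Figure D4:**
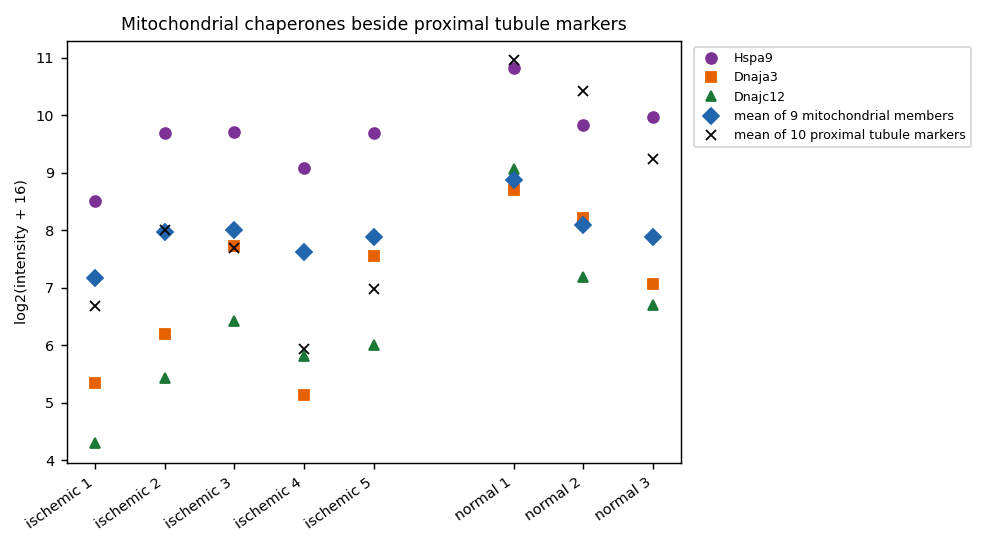
Levels (y axis, log2(intensity + 16)) of Hspa9, Dnaja3 and Dnajc12, the mean of 9 mitochondrial members and the mean of 10 proximal tubule markers in each of the 8 arrays (x axis). Normal 1 is the highest array in each of the 5 series, with 10.96 for the tubule markers.

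Dnajc12 had the lowest p and the largest difference of all 70 members. It is a J protein known as a partner of the aromatic amino acid hydroxylases, among them phenylalanine hydroxylase of liver and kidney. It measured 4.30, 5.44, 6.43, 5.81 and 6.00 in the ischemic and 9.06, 7.19 and 6.70 in the normal arrays. Every ischemic array lay below every normal array, by a narrow gap between ischemic 3 and normal 3. The difference was −2.06 ± 0.62 (SE, n = 5 and 3), 4.16-fold on this scale, with a 95% interval from −3.48 to −0.63 (limma adjusted p = 0.375). Leaving out normal replicate 1 gave −1.35, the 5 low-Xist arrays alone gave −0.87 and the 3 high-Xist arrays −4.19. The proximal tubule markers had the same order in the normal arrays, with means of 10.96, 10.43 and 9.23, but not in the ischemic arrays, with means of 6.69, 8.01, 7.69, 5.94 and 6.99. Their part in the value was not tested. Dnajc22, a membrane J protein, was at 7.05 in normal 1, 5.71 in normal 3 and between 4.30 and 5.10 in the other 6 arrays (difference −0.99 ± 0.54, SE).

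Of the 6 members listed under membrane traffic 3 differed by less than their pooled SD. Of the 5 listed under nucleus and ribosome all 5 did. Both lists had 0 past limma's test and 0 at an unadjusted p under 0.05. Dnajc5 (cysteine string protein), a chaperone of secretory vesicles, measured 5.96, 7.69, 7.93, 7.76 and 7.88 in the ischemic and 7.67, 8.64 and 7.59 in the normal arrays. Only ischemic 1 was low, and the difference was −0.52 ± 0.50 (SE), or −0.15 without that array. The 5 probe sets of Dnajc5 did not share a sign. Ischemic 1 was also the lowest array in those that differed by 0.18 and −0.31. In the probe set that differed by 0.45 it was at 7.64, below only ischemic 4 at 7.67. Dnajc13 (RME-8), which acts on endosomes, differed by 0.30 ± 0.29, and by −0.06 as the mean of its probe sets. Dnajc6 (auxilin), which uncoats clathrin vesicles and is best known from neurons, differed by −0.60 ± 0.31, with all 8 values between 4.34 and 5.76 and so near the floor.

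Dnajc5b and Dnajc27 had positive differences of 0.62 ± 0.44 and 0.31 ± 0.20 (SE), also near the floor, and Dnajc5g, whose groups did not overlap, lay between 4.10 and 4.38 in all 8 arrays. Such values say little about expression. Dnajc8, a splicing-associated J protein, measured 8.87, 9.71, 9.29, 10.25 and 9.18 in the ischemic and 8.87, 10.54 and 9.11 in the normal arrays, a difference of −0.04 ± 0.45. Dnajc9, a histone chaperone of dividing cells, measured 7.99, 8.77, 9.25, 8.40 and 9.21 in the ischemic and 7.71, 9.21 and 8.87 in the normal arrays. Its difference of 0.13 ± 0.43 became −0.32 without normal replicate 1 and −0.17 under ribosomal centring.

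Among chaperones of muscle, testis and other restricted tissues, 6 of 12 Hsp70 and DnaJ members and 1 of 6 small heat shock proteins lay at or above the median gene. The latter was Hspb11, a subunit of intraflagellar transport, which differed by −0.36 ± 0.48 (SE). Hspb6 was at 7.47 in normal 2 and between 4.96 and 5.99 in the other arrays, and Hspb7 at 7.53 in normal 1 and between 4.09 and 5.84 in the others. The testis-enriched Hspa1l differed by 0.59 ± 0.32 (limma adjusted p = 0.825), the lowest p of all positive members, with values from 4.84 to 6.13. Hspa2, known for its role in sperm development, measured 6.35, 7.01, 7.93, 8.45 and 8.52 in the ischemic and 8.02, 8.39 and 8.49 in the normal arrays, a difference of −0.65 ± 0.51. Ischemic 1 and ischemic 2 were its lowest arrays, and among the arrays with low Xist the difference was −0.14.

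Members in no other list were Dnajb2, Dnajc24 and Dnajc25. Dnajb2, a J protein best known from neurons, measured 7.43, 7.35, 7.82, 8.49 and 9.10 in the ischemic and 8.91, 8.07 and 8.92 in the normal arrays. It differed by −0.60 ± 0.44 (SE), and by −0.03 among the arrays with low Xist. Dnajc25 had one of the widest ranges, from 4.27 in normal 1 to 8.49 in normal 2, on a single probe set. Dnajc24, of diphthamide synthesis, differed by −0.20 ± 0.51, with ischemic 4 alone low at 4.98.

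Promoter windows from RefSeq, covering 250 bases before to 50 after the start, were found for 57 of the 70 members. The 3-unit heat shock element was present in 4 of these 57 members, Hspd1, Hspe1, Hsph1 and Dnajb6, against 0.603% of all 32851 windows. For each motif, members were counted by gene, if any of their 74 windows held a match, and the background by window. The shares are therefore not in like units. Hspd1 and Hspe1 were both counted, although they share the stretch that holds the element. In Hsph1 the match TTCTGGAAAGTTC lies at chr5:149636288-149636300, after the start, and in Dnajb6 the match GAATCTTCCGGAA lies at chr5:29735852-29735864. The shorter pair of units (GAANNTTC or TTCNNGAA, each part of the longer motif) was found in 16 of 57 members, of which 7 were among the 9 inducible members with a window, and in 15.1% of all windows. The ER stress element was held by 3 members, Hspa5, Hsp90b1 and Dnajc3, which belong to the 10 members of that compartment with a window. A match describes letters and is neither a site in use nor a cause of any value above.

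Different probe sets of a gene could disagree. The 70 members had 169 probe sets, and 32 members had more than 1 above the median gene. In 17 of these 32 the differences of such probe sets did not share a sign, among them Hspa4, Hspa8 and Hspa14, and in 7 they lay more than 1 log2 unit apart. For Hsp90aa1, Hsp90b1, Hspa5, Hspa1b, Hsph1, Dnajb1 and Hspb1 the probe sets above the median gene shared their sign.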

How the data were processed

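GFP-positive cells from ischemic and normal kidneys were profiled on 5 and 3 arrays. Per the labels' protocols, total RNA (Qiagen miRNeasy) went through NuGEN Pico amplification and biotin labelling for Affymetrix mouse arrays. The authors deposited linear probe set intensities. Which software, background correction and scaling made them is not given in the sources used here. Nothing says that kidneys of one group differ beyond their titles, so p-values measure only the spread between these arrays, and their number limits the precision.

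Of 45101 probe sets, 64 controls were left out, 34945 had 1 gene symbol, 932 several and 9160 none. Probe sets with several symbols, such as those of Dnajc19, were not used. Intensities were taken as log2(value + 16) and quantile normalized, and a gene was its probe set of highest mean over the 8 arrays, with no filter on dim genes. Groups were compared with limma 3.58.1 (lmFit, eBayes) in R 4.3.3 over all 18193 genes, with Benjamini-Hochberg adjustment. The step was tested on simulated data. Lists are described by counts and medians, with no set test. Symbols of 70 of 70 members matched RefSeq (GRCm38.p6).

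The members and lists were chosen with earlier results of these data known. Named were 14 fixed genes of the main compartments (Hsp90ab1 among them was not analysed here), the 4 members of lowest p in each direction, the 2 brightest of each list, the 3 with the widest range, and the 2 of lowest p in each list of other genes. Further genes and the shorter promoter motif were picked after their values were seen. Alternatives tried: a block for the replicate number, centring on the array median or on ribosomal protein genes, pseudocounts of 1 and 64, a filter at the 40th percentile, other probe set rules, eBayes with trend or robust, array weights, each array left out and arrays split by Xist, of which the high-Xist split was chosen after seeing the data. Figures used matplotlib 3.10.9.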

Additional observations from a re-analysis of the deposited data

Results flagged for a closer look

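Within the 5 ischemic arrays, 41 named members and list means were searched for a single array far from the other 4, by the gap to the nearest array as a share of the whole range (critical value 0.71). Chance flags about 1 in 20 such groups when they are not selected. Some of these members were named for a wide range or a low p, and list means include named members. That rate therefore does not hold strictly here. Ischemic 5 stood apart in Hspb1, at 10.52 against 5.76 to 7.07 in the other ischemic arrays, and in the mean of the stress-inducible cytosolic list, at 10.58 against 9.16 to 9.51. Ischemic 1 stood apart on the low side in Dnajc5, at 5.96 against 7.69 to 7.93, in Dnajc27, at 4.48 against 4.75 to 4.85, and in the mean of the nuclear and ribosome list, at 6.77 against 7.90 to 8.26. Ischemic 4 stood apart on the low side in Dnajc24, at 4.98 against 6.69 to 7.23, and in Dnajc25, at 4.50 against 6.43 to 7.11. Groups of 3 arrays were not searched.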

How the results depend on the processing

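No member was called by limma under any of the settings tried, and the lowest adjusted p among the 32 named members was 0.123. Of 668 alternatives for these members 619 kept their direction and 49 turned it, all for differences that were not called. Over all genes, 0 were called in the main setting, 166 with ribosomal centring, 113 without normal replicate 3, 31 with eBayes trend, 15 with the 40th percentile filter and 5 with array weights. The titles give no pairing by replicate number. Deviations from the group means correlated at 0.16, −0.088 and 0.10 between arrays of the same number. Without such values for arrays of unlike number, these cannot decide whether the arrays are paired. With the replicate block, 8 of 70 members lay lower at an unadjusted p under 0.05 (5.29% of all genes), Hspb1 was −1.99, Hspa12b −1.69, Hspa2 −1.20 and Dnajb2 −1.10, the endoplasmic reticulum median was −0.21, Dnajb9 was −0.15 and Dnajc24 0.17. Median centring gave −0.14 for the constitutive median, −0.036 for Dnajb9, −0.074 for Dnajc9 and −0.087 for Dnajc25. Ribosomal centring gave −0.35 for the median of all members, −0.24 for the constitutive median, −0.13 for Dnajb9, −0.17 for Dnajc9 and −0.18 for Dnajc25. Higher members at an unadjusted p under 0.05 numbered 1 with a pseudocount of 1, the mean of all probe sets, the probe set of largest variance, array weights and low-Xist arrays alike. In these settings 338 to 458 of all 18193 genes were higher at that p. Lower members numbered 1 with the probe set of largest variance, against 4.94% of all genes. Dnajc25 was −0.10 with a pseudocount of 64. Dnajc13 was −0.062 and Dnajc8 0.0086 as means of probe sets, and Dnajc13 −0.43 by the probe set of largest variance. Array weights gave 0.099 for Hspb11 and −0.038 for Dnajc25. Low-Xist arrays alone gave 0.050 for Dnaja1, 0.038 for Hspe1, 0.058 for Hspd1, −0.011 for Dnajc13, −0.085 for Dnajc9, 0.14 for Hspb11 and −1.43 for Dnajc25. High-Xist arrays alone, with 1 normal array assumed to vary like the 2 ischemic ones, gave 7 lower members (5.3% of all genes), medians of −0.13 (endoplasmic reticulum) and −1.56 (mitochondrial), 0.036 for Hsph1, 0.26 for Hspa1a, 0.10 for Dnajb1, 0.096 for Hspa8, −0.17 for Dnajb9, 0.43 for Dnajc8, 0.026 for Hspb6 and 0.25 for Dnajc24. The causes were not tested.

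Leaving out each array in turn gave 0 to 1 higher and 1 to 5 lower members at an unadjusted p under 0.05. Over all 18193 genes these fits gave 191 to 633 higher genes and 3.39% to 6.12% lower ones. The medians ran from −0.21 (without ischemic replicate 5) to −0.061 (without normal replicate 1) for all members, from −0.52 (without normal replicate 2) to −0.056 (without ischemic replicate 3) for inducible, from 0.011 (without normal replicate 1) to 0.14 (without ischemic replicate 2) for constitutive, from −0.091 (without ischemic replicate 4) to 0.29 (without normal replicate 3) for endoplasmic reticulum and from −0.64 (without normal replicate 3) to −0.056 (without normal replicate 1) for mitochondrial members. Directions turned for Hspa1b (−1.14 to 0.091), Dnajb1 (−0.30 to 0.16), Dnaja1 (−0.44 to 0.19), Hspa8 (−0.12 to 0.045), Dnajc9 (−0.32 to 0.44), Dnajc8 (−0.36 to 0.47), Hspb6 (−0.88 to 0.21), Dnajc24 (−0.35 to 0.21) and Dnajc25 (−0.99 to 1.12). Members near the floor carry little signal over background, and 3 normal arrays limit every comparison.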
